A study of Mus musculus with 3 samples.

Results

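The B cell identity genes described here are Cd79a, Cd79b, Cd22, Cr2, Fcer2a, Blk, Pax5, Ebf1 and Vpreb3, 9 of the 17615 genes listed in any of 3 RNA sequencing libraries of mouse splenic macrophages. They were chosen by symbol through their NCBI gene IDs, and each was listed in every library. The groups, with 1 library each, were mice whose leukemia cells had high mM-CSF, high sM-CSF or, as the control, neither. The recipients were C57BL/6J mice aged 6 to 8 weeks that received 800000 leukemia cells each, positive for GFP and BFP, without irradiation, and all developed acute myeloid leukemia. The labels give 30 to 40 days as the survival time of this model, and the libraries come from an earlier time. Cells without GR1, with intermediate CD115 and with F4/80 were sorted from the spleen on day 18. M-CSF is the growth factor that binds CD115, and its prefixes m and s are not spelled out in the labels. How many mice went into a library is not given in the sources used here. Nothing in these values has a replicate check, and no test between conditions was possible.

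B lymphocytes recognise antigen through a surface immunoglobulin whose own tail is too short to signal. The chains CD79A and CD79B carry the signal into the cell, Src family kinases such as BLK phosphorylate them, and coreceptors raise or lower the threshold of activation. The transcription factors EBF1 and PAX5 specify the lineage and hold it, and switch on genes of the receptor and its coreceptors. The spleen is one of the organs richest in mature B cells, in follicles and in the marginal zone that surrounds them. These are not genes that macrophages are known for, so the values describe transcripts of a lineage other than the one the sort aimed at. In bulk RNA, fewer cells of a type and less RNA per cell cannot be told apart.

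Promoter windows from RefSeq (build GRCm38.p6) were at hand for 7 of the 9 genes, in 10 windows, without Cd79b and Blk. The 250 bases before an annotated transcript start are shown for 3 genes, and in Cd22 and Vpreb3 that start lies inside the gene's annotated span, so it is not the outermost one. Each was picked for a match to a motif of a B cell transcription factor, which stands in capitals. In Cd22 (chr7:30879029-30879278, minus strand) the capitals mark the EBF1 palindrome TCCCNNGGGA, 49 to 40 bases before the start. In Vpreb3 (chr10:75948050-75948299, plus strand) they mark the octamer ATTTGCAT, 45 to 38 bases before the start, a motif bound by the lymphoid factor OCT2 with its coactivator OCA-B. In Cd79a (chr7:24897247-24897496, plus strand) they mark the E-box CAGGTG, 154 to 149 bases before the start, a motif bound by E2A proteins.
Cd22: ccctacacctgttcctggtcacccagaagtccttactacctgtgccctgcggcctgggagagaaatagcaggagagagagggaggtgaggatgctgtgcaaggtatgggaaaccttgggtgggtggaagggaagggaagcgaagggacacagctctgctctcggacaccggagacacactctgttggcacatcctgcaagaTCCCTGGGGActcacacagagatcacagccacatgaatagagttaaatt
Vpreb3: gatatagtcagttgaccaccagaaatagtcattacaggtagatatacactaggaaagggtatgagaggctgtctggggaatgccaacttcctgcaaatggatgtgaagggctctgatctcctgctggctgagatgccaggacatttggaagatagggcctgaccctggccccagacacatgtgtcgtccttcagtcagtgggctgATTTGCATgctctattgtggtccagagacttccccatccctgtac
Cd79a: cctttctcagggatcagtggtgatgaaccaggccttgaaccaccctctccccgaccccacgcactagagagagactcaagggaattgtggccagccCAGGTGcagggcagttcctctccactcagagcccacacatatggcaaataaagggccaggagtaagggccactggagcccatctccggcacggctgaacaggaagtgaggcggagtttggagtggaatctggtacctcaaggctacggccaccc
With both strands searched, the EBF1 palindrome lay in 0.779% of all 32851 RefSeq windows of this length, and in 1 of the 10 windows of these genes. The octamer lay in 1.60% of all windows and again in 1 of the 10. The E-box was in 17.2% of all windows and in 4 of the 10, those of Cd79a, Cd22, Cr2 and Fcer2a. A match describes letters in a window and says nothing about binding in these cells.

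The genes of the sort were abundant in every library. Csf1r, which encodes CD115, was at 222 FPKM in the mM-CSF, 149 in the sM-CSF and 268 in the control library, and Adgre1, which encodes F4/80, at 67.5 FPKM in the mM-CSF, 65.5 in the sM-CSF and 101 in the control library. FPKM scales the fragments of a gene to its length and to the library's mapped fragments. Total estimated counts were 8.57e+06 in the mM-CSF, 8.94e+06 in the sM-CSF and 9.09e+06 in the control library. Together the 9 genes took 32967 estimated counts in the mM-CSF library, 0.385% of the total (95% Clopper-Pearson interval 0.381% to 0.389%). The sM-CSF library gave them 35794 counts and 0.400% (0.396% to 0.404%), and the control library 21065 counts and 0.232% (0.229% to 0.235%). The summed share was thus larger in both libraries from leukemia with high M-CSF than in the control library, and all such intervals cover counting error only. As a sum, the larger share in the mM-CSF library rests on Cd79a and Cd79b. Without them, a choice made after the data were seen, the other 7 genes took 0.124% of counts in the mM-CSF library (0.121% to 0.126%), 0.196% in the sM-CSF library (0.193% to 0.199%) and 0.131% in the control library (0.128% to 0.133%), so that the mM-CSF share was the lowest. Of those 7 genes, Pax5, Vpreb3, Blk and Fcer2a had larger shares in the mM-CSF than in the control library. Cd22 and Cr2 had smaller ones, and Ebf1 was not apart beyond counting error. Cd22, with 4886, and Cr2, with 2314, held much of the 11872 control counts of the 7. With the trend along gene length described below removed, 8 of the 9 mM-CSF differences were above 0, against 49.4% of genes. The order of the 9 genes by level per length was led by Cd79a and Cd79b in every library. Ebf1 was lowest in every library, at 15.3 FPKM in the mM-CSF, 21.9 in the sM-CSF and 14.4 in the control library, and still had at least 687 counts. Estimated counts were whole within 0.005 reads in all 3 libraries for 6 of the genes. Those of Cd22, Cr2 and Fcer2a were not in at least 1 library, as can happen where reads are divided between genes. In the RefSeq annotation the span of Fcer2a overlaps Trappc5, listed at 29.7 FPKM in the mM-CSF, 32.3 in the sM-CSF and 24.2 in the control library, and that of Pax5 overlaps Mir5120 and 5730488B01Rik, the second at 1.55 FPKM in the mM-CSF, 1.35 in the sM-CSF and 1.67 in the control library. Since the strand setting is not given, reads of such genes could not be told apart with certainty.

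**Figure D1:**
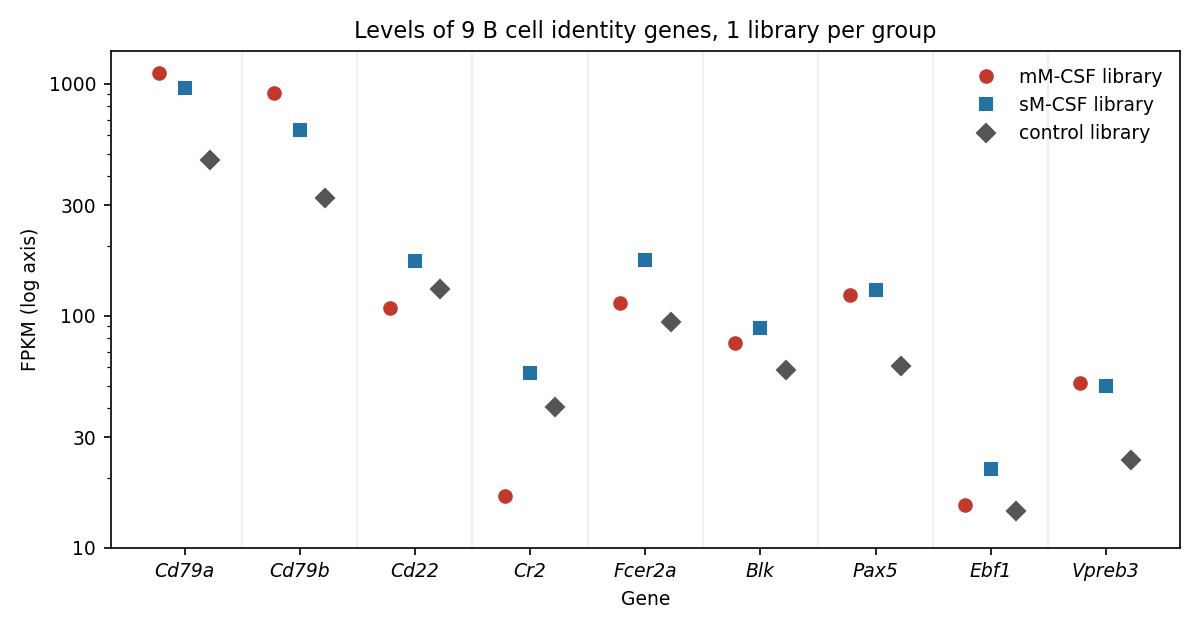
FPKM (log axis) of the 9 genes, 1 point per library: circles for mM-CSF, squares for sM-CSF and diamonds for control. The sM-CSF square is above the control diamond for every gene, while the mM-CSF circle is the highest point for Cd79a, Cd79b and Vpreb3 and the lowest for Cd22 and Cr2.

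The signalling chains of the B cell receptor had the largest ratios above the control in the mM-CSF library, on the deposited scale. Cd79a had 1117 FPKM in the mM-CSF library, 957.5 in the sM-CSF library and 468 in the control library. Its share of counts in the mM-CSF library was 2.40 times that in the control (95% counting interval 2.33 to 2.48), and in the sM-CSF library 2.05 times (1.98 to 2.11). It was among the most abundant transcripts of each library, at rank 103 in the mM-CSF, 85 in the sM-CSF and 126 in the control library. Cd79b, which encodes the partner chain, had 918 FPKM in the mM-CSF, 634 in the sM-CSF and 322 in the control library. Its share of counts was 2.86 times the control's in the mM-CSF library (2.75 to 2.97) and 1.97 times in the sM-CSF library (1.89 to 2.05). Both chains were lowest in the control library, and the mM-CSF library exceeded the sM-CSF library by 1.17 times for Cd79a (1.14 to 1.20) and by 1.45 times for Cd79b (1.41 to 1.5).

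Among the genes of other surface receptors, Cr2 and Cd22 were below the control in the mM-CSF library and Fcer2a was above it. With the median of genes of like length subtracted, the difference of Cd22 in log2(FPKM + 1) turned from -0.28 to 0.19 and that of Cr2 shrank from -1.23 to -0.36, under a 2-fold change. Cr2, which encodes CD21, a complement receptor that lowers the threshold of B cell activation and is also found on follicular dendritic cells, had 16.7 FPKM in the mM-CSF library, 56.7 in the sM-CSF library and 40.6 in the control library. Its share of counts was 2.41-fold lower in the mM-CSF library than in the control (2.23 to 2.61), but in the sM-CSF library it exceeded the control's 1.40-fold (1.33 to 1.48). Cr2 thus stood lowest in the library where Cd79a stood highest on the deposited scale. The mM-CSF minus sM-CSF difference of Cd79a turned from 0.22 to -0.19 with the length trend removed and to -0.10 with TPM. Cd22, which encodes an inhibitory lectin that binds sialic acid and dampens receptor signalling, was at 108 FPKM in the mM-CSF, 172 in the sM-CSF and 131 in the control library. Its share was 1.22-fold lower in the mM-CSF library than in the control (1.17 to 1.28) while in the sM-CSF library it exceeded the control's 1.31-fold (1.26 to 1.36). For both genes the 3 libraries had the same order, with sM-CSF highest and mM-CSF lowest, and all neighbours in that order were apart by more than counting error. Fcer2a, which encodes CD23, the low-affinity IgE receptor of follicular B cells, was at 114 FPKM in the mM-CSF, 174 in the sM-CSF and 93.6 in the control library. Its share was 1.18 times the control's in the mM-CSF library (1.11 to 1.25) and 1.83 times in the sM-CSF library (1.73 to 1.94).

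Blk, the Src family kinase gene, had 76.0 FPKM in the mM-CSF library, 89.0 in the sM-CSF library and 58.2 in the control library. Its share of counts was 1.31 times the control's in the mM-CSF library (1.22 to 1.41) and 1.53 times in the sM-CSF library (1.43 to 1.64). Like Fcer2a, it was highest in the sM-CSF and lowest in the control library.

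The transcription factor genes differed from each other in the mM-CSF library on the deposited scale. With the median of genes of like length subtracted, their order turned. The mM-CSF difference from control in log2(FPKM + 1) was then 0.31 for Pax5, of 1208 bases, and 0.82 for Ebf1, of 5200 bases. Pax5, the commitment factor gene, was at 123 FPKM in the mM-CSF, 130 in the sM-CSF and 61.1 in the control library. Its share was 2.03 times the control's in the mM-CSF library (1.84 to 2.23) and 2.13 times in the sM-CSF library (1.94 to 2.34). The ratio of mM-CSF to sM-CSF was 0.953 (0.882 to 1.03), so these were not apart beyond counting error. Ebf1, whose product acts upstream of Pax5 in early B cells, had a share in the mM-CSF library 1.07 times that in the control (0.960 to 1.19), not apart beyond counting error. In the sM-CSF library it was 1.52 times the control's (1.38 to 1.68). Vpreb3, whose product associates with immunoglobulin chains during their assembly, was at 51.2 FPKM in the mM-CSF, 49.7 in the sM-CSF and 23.9 in the control library. Its share was 2.15 times the control's in the mM-CSF library (1.73 to 2.69) and 2.08 times in the sM-CSF library (1.67 to 2.60), the widest intervals of the 9 genes, since it had only 254 counts in the mM-CSF, 256 in the sM-CSF and 125 in the control library. Its mM-CSF to sM-CSF ratio of 1.04 (0.867 to 1.24) was within counting error.

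**Figure D2:**
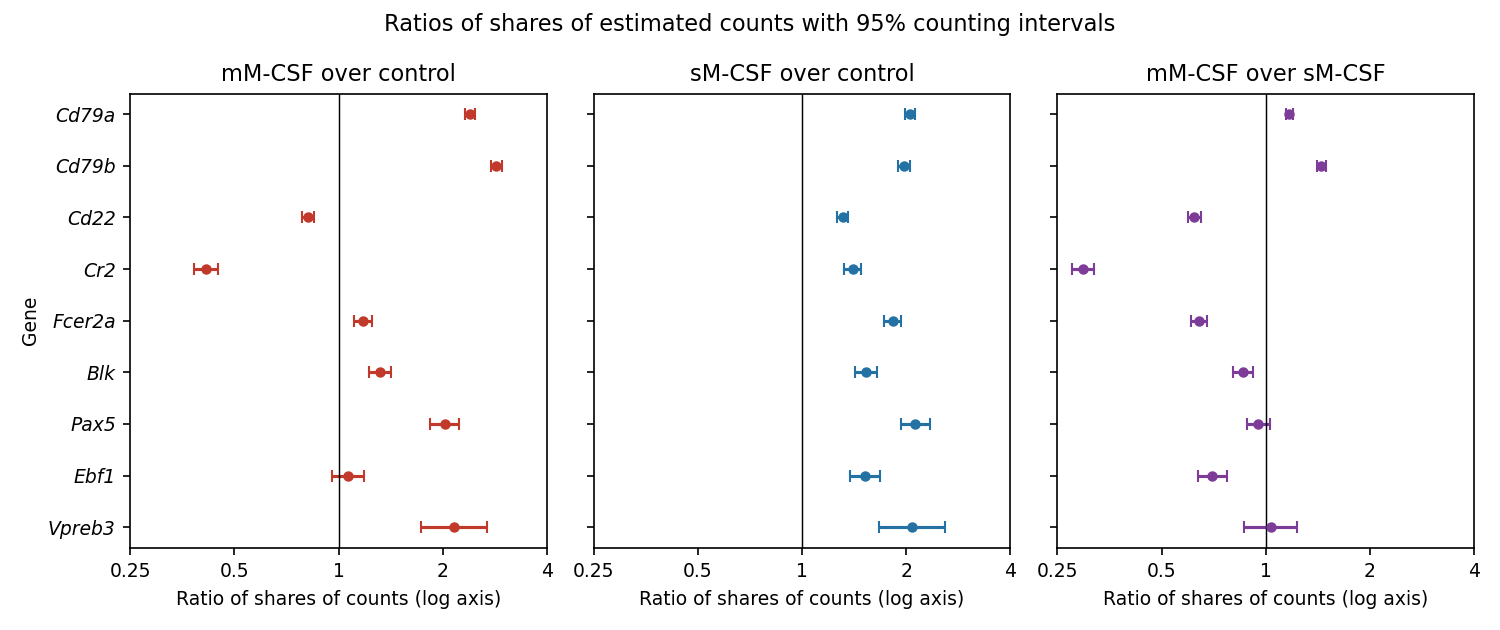
Ratio of each gene's shares of estimated counts (log axis) between 2 libraries, with bars for the exact 95% counting interval and a line at 1. In the sM-CSF over control panel all 9 ratios lie between 1.31 and 2.13, whereas in the mM-CSF over control panel they run from 0.414 for Cr2 to 2.86 for Cd79b.

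Differences from control were more uniform over the 9 genes for sM-CSF than for mM-CSF. A gene was called higher or lower where the difference in log2(FPKM + 1) was at least 1 in size, a 2-fold change, with a minimum of 5 FPKM where the level was higher. In the sM-CSF library 3 of the 9 genes were called higher than in the control (Cd79a, Pax5 and Vpreb3) and 0 lower, where 0.785% of 9683 genes were called higher and 1.63% lower. Cd79b, at a difference of 0.97, lay just short of the rule. All 9 differences were above 0, against 52% of genes, and all 9 counting intervals lay above 1, against 27.3% of genes. The differences ran from 0.39 for Cd22 to 1.07 for Pax5, with a median of 0.89, and the median of all genes was 0.02. The calls hang on the scale, since the 3 called genes lay at 1.02 to 1.07. With values rescaled to TPM 0 of them were called, where 0.872% of genes were called higher, and with median-of-ratios scaling only Pax5, where 0.676% were, although all 9 differences stayed above 0 under both.

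In the mM-CSF library 3 of the 9 genes were called higher than in the control (Cd79a, Cd79b and Vpreb3) and Cr2 was called lower, where 8.97% of 9789 genes were called higher and 15.1% lower. Pax5, at 0.999, lay just short of the rule. Differences ran from -1.23 for Cr2 to 1.51 for Cd79b, with a median of 0.38 against -0.05 over all genes. Of the 9 differences 7 were above 0, against 47.8% of genes, and 6 counting intervals lay above 1, against 38%. On the TPM scale the median of all genes was -0.54 and 2.50% of genes were called higher and 30.3% lower. The median of the 9 genes was then -0.08, which exceeded the median of all genes by 0.46, close to the 0.43 of the deposited scale. Under TPM the differences of Fcer2a, Blk and Ebf1 turned to -0.18, -0.08 and -0.36.

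When the mM-CSF library was set against the sM-CSF library, only Cr2 was called among the 9 genes, lower in the mM-CSF library by a difference of -1.70. Its share of counts there was 3.38-fold lower (3.14 to 3.64). Over all 9574 genes 8.73% were called lower and 3.79% higher. Fcer2a, at -0.61, Cd22, at -0.67, and Ebf1, at -0.48, were lower by less than the rule, and Cd79b, at 0.53, was higher by less than the rule. The median of the 9 genes was -0.22 and that of all genes -0.08. TPM turned the differences of Cd79a and Vpreb3 from above to below 0 (0.22 to -0.10 and 0.04 to -0.27), and median-of-ratios and upper-quartile scaling turned that of Pax5 from -0.08 to 0.06 and 0.002.

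The differences followed gene length. The mean lengths in the tables ran from 602 bases for Vpreb3 and 1208 for Pax5 to 5200 for Ebf1 and 6207 for Cr2. Across 9251 genes at a mean of 5 FPKM or more, Spearman's rho of the mM-CSF difference with length was -0.69, and for the sM-CSF difference it was -0.45. Across the 9 genes it was -0.83 for the mM-CSF and -0.87 for the sM-CSF difference. These are descriptions across genes that share the same libraries, and genes are not replicates. The median mM-CSF difference of genes near the length of Cr2 was -0.88, near Cd79a 0.59 and near Vpreb3 1.05. Vpreb3 therefore differed by 0.02 from genes of its own length in the mM-CSF library, and Cr2 by -0.36. With this running median subtracted, Cd79b (0.85), Ebf1 (0.82) and Cd79a (0.66) had the largest mM-CSF differences. Cd22 turned to 0.19, and 8 of the 9 genes were above 0, against 49.4% of all genes. The range over the 9 genes shrank from 2.74 to 1.20, and 0 of them passed the size rule in either direction, against 2.93% of genes higher and 7.96% lower.

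For the sM-CSF library the same subtraction left all 9 genes above 0, against 49.2% of genes, between 0.47 for Cd22 and 0.86 for Pax5, with a median of 0.72. The spread over the 9 genes was small, with an SD over genes of 0.13, against 0.40 in the mM-CSF comparison. None passed the size rule, where 0.485% of genes were called higher and 1.79% lower. In the mM-CSF comparison 2.93% of genes were called higher and 7.96% lower, so a wider spread there was not particular to the 9 genes. With mM-CSF set against sM-CSF, Cr2 stayed past the rule at -1.004, where 4.67% of genes were called lower, and Fcer2a (-0.65), Pax5 (-0.57) and Vpreb3 (-0.68) were lower by less. Ebf1 turned to 0.14 and Cd79a to -0.19 in that comparison. What gave rise to the trend along length was not tested.

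**Figure D3:**
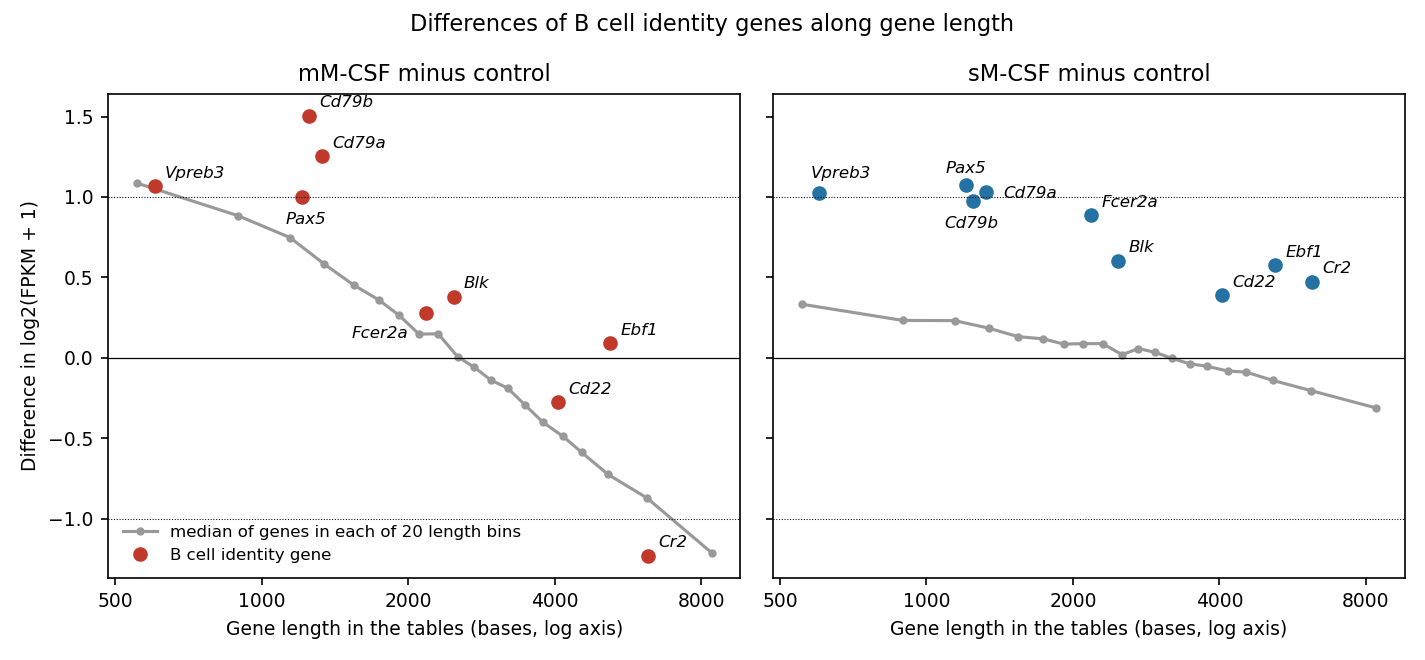
Difference from control in log2(FPKM + 1) against gene length (log axis) for the 9 genes (points) in the mM-CSF library, left, and the sM-CSF library, right, over the median of genes in each of 20 length bins (grey line), with dotted lines at the size rule of 1. In the mM-CSF panel the points tend to fall with length, as the grey line does, but not at every step. Cd79b is the highest point there and Cr2 the lowest. In the sM-CSF panel all 9 points lie above the grey line.

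Proportions between the genes inside a library showed the same contrast. The FPKM of Cd79a was 1.22 times that of Cd79b in the mM-CSF, 1.51 times in the sM-CSF and 1.45 times in the control library. Against Pax5, which is of similar length, Cd79a was 9.08-fold higher in the mM-CSF, 7.38-fold in the sM-CSF and 7.67-fold in the control library. Against the long Cr2 it was 66.9-fold higher in the mM-CSF, 16.9-fold in the sM-CSF and 11.5-fold in the control library. Fcer2a was 6.81 times Cr2 in the mM-CSF, 3.07 times in the sM-CSF and 2.31 times in the control library. Pax5 was 8.02 times Ebf1 in the mM-CSF, 5.93 times in the sM-CSF and 4.26 times in the control library. Cd22 was 6.45 times Cr2 in the mM-CSF, 3.03 times in the sM-CSF and 3.22 times in the control library. The ratios of Cd79a to Cd79b and to Pax5 thus varied less over the libraries than the ratios to Cr2 and Ebf1, which were highest in the mM-CSF library. The ratio of Cd22 to Cr2 varied more than that of Pax5 to Ebf1, although Cd22 and Cr2 are nearer in length.

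Other genes of the B lineage were taken from 8 lists, and the immunoglobulin constant region genes Ighm, Ighd and Igkc had no row in the tables. Ms4a1, which encodes CD20, was at 151 FPKM in the mM-CSF, 224 in the sM-CSF and 155 in the control library. Like Cr2, Ms4a1 was highest in the sM-CSF library and did not exceed the control in the mM-CSF library.

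In the sM-CSF library the mature B cell surface and trafficking list came closest to the 9 genes. Of its 20 genes 17 had a difference above 0, with a median of 0.52 that was 0.43 after subtraction of the length trend, and 0 passed the size rule. Its largest differences were those of the IgM receptor gene Fcmr, at 378 FPKM in the sM-CSF and 206 in the control library, and of Ly6d, at 428 FPKM in the sM-CSF and 236 in the control library. The lists of signalling and transcription factors held many genes that macrophages also express, such as Syk, Lyn and Irf8. Of 21 B cell receptor signalling genes 10 were above 0 in the sM-CSF library (median -0.001, 0 past the rule), and of 15 B lineage transcription factor genes 10 were (median 0.10, 0 past the rule). Medians of marginal zone (0.19), B-1 cell (-0.08), germinal centre (-0.15) and plasma cell genes (0.10) were closer to that of all genes than the median of the 9 genes was, with 0 genes past the rule. Only 3 B-1 cell and 2 germinal centre genes reached the 5 FPKM that a call needed. With the length trend removed the plasma cell median turned to -0.05 and the signalling median to 0.11. Progenitor genes had a median of 0.09, with 2 at 5 FPKM or more. The 1 called gene was Lef1, also a T cell gene, at 27.4 FPKM in the sM-CSF and 11.5 in the control library. Of all genes 0.785% were called higher and 1.63% lower in this comparison.

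The plasma cell list stood highest among B lineage lists in the mM-CSF library. Of its 9 genes 6 were called higher and 0 lower, with a median of 1.71 that was 0.95 after subtraction of the length trend, and Mzb1 was at 612 FPKM in the mM-CSF and 174 in the control library. Of all genes 8.97% were called higher and 15.1% lower between mM-CSF and control. Signalling genes had a median of -0.47 (-0.02 with the trend removed), with 1 of 21 called higher and 2 lower. Pik3ap1, an adaptor gene for PI3 kinase, was at 12.1 FPKM in the mM-CSF and 78.2 in the control library. Among 15 transcription factor genes 0 were higher and 3 lower (median -0.28, turning to 0.18 without the trend). The lower ones included Bcl6, at 14.2 FPKM in the mM-CSF and 62.3 in the control library. Over 20 mature surface and trafficking genes the median was -0.04. The 1 higher gene was Ly6d, at 584 FPKM in the mM-CSF and 236 in the control library. The 1 lower gene was Cd180, a toll-like receptor homologue, at 33.7 FPKM in the mM-CSF and 121 in the control library. The marginal zone list had 1 of 8 lower, Notch2 at 10.2 FPKM in the mM-CSF and 50.1 in the control library, and a median of -0.24. Germinal centre genes had 0 called and a median of 0.56, B-1 cell genes 1 higher and 1 lower of 4 and a median of 0.53, and progenitor genes 0 called and a median of -0.12. Only 3 germinal centre and 2 progenitor genes reached the 5 FPKM that a call needed. Of the 9 progenitor genes 7 were at 1.55 FPKM or less in every library. The others were Lef1, at 18.2 FPKM in the mM-CSF library, and the interleukin 7 receptor gene Il7r, also used by T cells, at 12.9 FPKM in the mM-CSF, 29.6 in the sM-CSF and 17.9 in the control library. Vpreb1 was at 1.55 FPKM in the mM-CSF, 0.75 in the sM-CSF and 0 in the control library, and Rag1 at 0.15 FPKM in the mM-CSF, 1.09 in the sM-CSF and 1.19 in the control library.

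With mM-CSF set against sM-CSF, 7 of 9 plasma cell genes were called higher and 0 lower. Their median was 1.60, and 1.20 after subtraction of the length trend. Of all genes 3.79% were called higher and 8.73% lower in this comparison. The other B lineage lists with a median below 0 were transcription factors (-0.63, 1 of 15 lower), mature surface and trafficking (-0.56, 2 of 20), signalling (-0.53, 2 of 21), marginal zone (-0.47, 2 of 8) and progenitor genes (-0.39, 1 of 9), each with 0 higher. Germinal centre (0.40) and B-1 cell genes (0.27) had 1 gene higher each and 0 lower. With the length trend removed the medians were -0.04 for transcription factors, -0.24 for signalling and -0.61 for mature surface and trafficking genes. Those of marginal zone and progenitor genes were then -0.57 and -0.39, and those of germinal centre and B-1 cell genes 0.13 and 0.52. Only 3 germinal centre and 2 progenitor genes reached 5 FPKM in this comparison.

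Markers of other cell types moved between the libraries as well. Against control, 8.97% of all genes were called higher and 15.1% lower in the mM-CSF library. In the sM-CSF library 0.785% were called higher and 1.63% lower. The 15 T cell genes, all listed in every library, had a summed level of 1184 FPKM in the mM-CSF, 977 in the sM-CSF and 553 in the control library. In the sM-CSF library all 15 had a difference above 0 (median 0.87, 5 higher, 0 lower), a pattern close in size to that of the 9 B cell genes. In the mM-CSF library 12 of 15 did (median 1.11, 8 higher, 1 lower). With the length trend removed the T cell medians were 0.76 for mM-CSF and 0.75 for sM-CSF. The 13 macrophage genes summed to 1689 FPKM in the mM-CSF, 1322 in the sM-CSF and 2229 in the control library. Their median difference was -0.05 in the mM-CSF library (1 higher, 3 lower) and -0.52 in the sM-CSF library (0 higher, 2 lower, 2 of 13 above 0). With the length trend removed the macrophage medians were -0.26 for mM-CSF and -0.60 for sM-CSF. Higher B and T cell transcripts thus stood beside lower macrophage transcripts in the sM-CSF library, and the part of either in the other was not tested.

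Plasmacytoid and follicular dendritic cells, which share single genes with B cells, had low summed levels. Plasmacytoid dendritic cells, which can also express Blk, had 7 listed genes that summed to 81.2 FPKM in the mM-CSF, 64.8 in the sM-CSF and 57.5 in the control library. Their median difference from control was -0.03 in the mM-CSF library (1 higher, 0 lower) and 0.19 in the sM-CSF library (0 called). The 6 follicular dendritic cell genes summed to 13.5 FPKM in the mM-CSF, 10.1 in the sM-CSF and 8.39 in the control library, and 3 of them, among them Cxcl13 and Madcam1, were under 1 FPKM in every library. Over 3 measured genes the median difference was 0.12 for mM-CSF and -0.09 for sM-CSF, with 0 called in either. Only 1 of the 6 reached the 5 FPKM that a call needed, so the absence of calls says little. Conventional dendritic cell genes had a median of -2.12 in the mM-CSF library (0 higher, 7 lower of 10) and -0.13 in the sM-CSF library (0 called). In each comparison 8 of the 10 reached 5 FPKM. The shares over all genes were 8.97% higher and 15.1% lower for mM-CSF, and 0.785% higher and 1.63% lower for sM-CSF. Neutrophil and granule genes had a median of 2.35 in the mM-CSF library (7 higher, 0 lower of 9) and 0.08 in the sM-CSF library (0 called). Of these 9 genes 7 reached 5 FPKM in the mM-CSF comparison and 6 in the sM-CSF comparison. NK cell genes had a median of 0.24 in the mM-CSF library (1 of 8 higher) and 0.12 in the sM-CSF library (0 called). Erythroid genes had one of -0.40 for mM-CSF and -0.59 for sM-CSF, with 2 of 9 lower in each. With the length trend removed, medians turned sign for plasmacytoid dendritic cell genes in the mM-CSF library (0.31), for NK cell genes in both (-0.31 for mM-CSF and -0.03 for sM-CSF), and for neutrophil and granule genes in the sM-CSF library (-0.08). Erythroid medians moved without a turn of sign, to -1.23 for mM-CSF and -0.73 for sM-CSF. In the mM-CSF library the conventional dendritic cell median became -1.67 and the neutrophil and granule median 1.42. No gene of these lists was at 0 in any library, and their part in the B cell gene values was not tested.

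**Figure D4:**
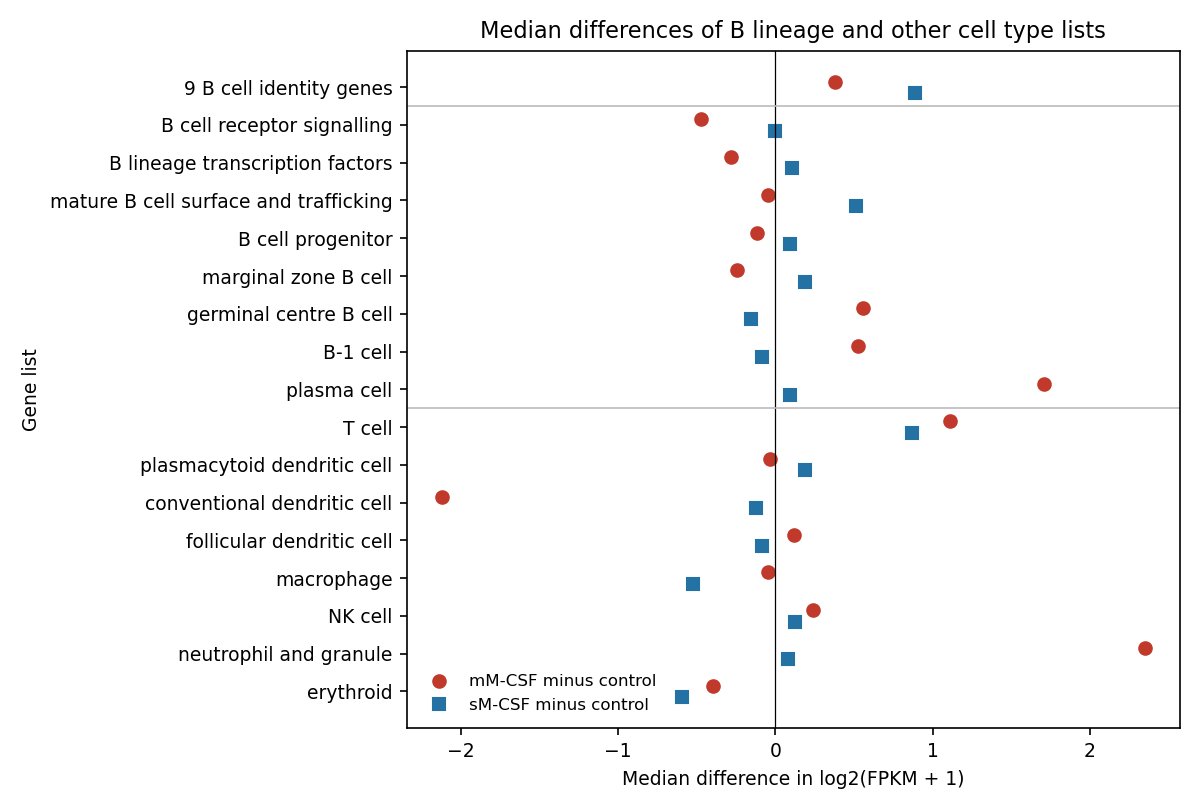
Median difference from control in log2(FPKM + 1) of the 9 B cell identity genes and of 16 marker lists, over list genes at 1 FPKM or more in either library, with circles for mM-CSF and squares for sM-CSF. The 9 genes (0.89) and the T cell list (0.87) lie farthest right among the sM-CSF squares, whereas plasma cell (1.71) and neutrophil and granule genes (2.35) do so among the mM-CSF circles.

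Genes with the most similar pattern were sought over both differences from control. Among 4715 candidate genes at 20 FPKM or more in their highest library, the 6 nearest to the medians of the 9 genes by Euclidean distance included Dgka, Pik3ip1, Cxcr5, Mapk1ip1 and Tctn1. Their distances were 0.06 for Dgka, 0.08 for Pik3ip1, 0.13 for Cxcr5 and 0.18 for Mapk1ip1 and Tctn1. Cxcr5, the follicle homing receptor gene, is in the mature B cell surface and trafficking list. Dgka, Pik3ip1, Mapk1ip1 and Tctn1 are in none of the marker lists, and which cells their transcripts came from was not tested. Dgka, a diacylglycerol kinase gene, was at 74.5 FPKM in the mM-CSF, 100.8 in the sM-CSF and 55.1 in the control library, and Cxcr5 at 64.5 FPKM in the mM-CSF, 85.3 in the sM-CSF and 49.96 in the control library. Of the 9 genes themselves Fcer2a was nearest to these medians, at 0.10, and Cr2 farthest, at 1.66. The measure rests on 3 libraries with a shared control, and says no more than that these values lie close.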

How the data were processed

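RNA from sorted splenic macrophages (1 ug of total RNA per library, BGISEQ-500, per the labels' protocols) was deposited as 1 table per library. Per the file headers, the authors' values are an expected count (an estimated count, which need not be whole), a gene length and an FPKM, which scales counts to length and to mapped fragments. Bowtie2 (2.2.5) and RSEM are named in the submitters' processing notes, without their roles. Build, annotation and strand setting are not given in the sources used here. Genes without a row were taken as 0, and 17561 of 17615 gene IDs received a symbol from RefSeq tables of GRCm38.p6.

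Differences were taken on log2(FPKM + 1), which understates changes of low genes. Since every group has a single library, no spread between replicates and no p-value could be had. Ratios of shares of counts, rounded to whole numbers, have exact conditional (Clopper-Pearson) 95% intervals, which cover counting error only. In the mM-CSF, sM-CSF and control libraries, 3 counts equal 0.350, 0.335 and 0.330 CPM. Lists were read at 1 FPKM or more in either library, and calls needed 5 FPKM in the higher one. Of 173 list genes 170 had a row. The length trend is the median difference in 20 length bins, interpolated on log length.

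Named genes were the 9 members, up to 3 list genes with the largest difference per comparison, a few B cell and sort genes, and the 6 nearest in pattern. Of these only some are printed, 1 gene is not reported here, and Syk, Lyn, Irf8, Rag1, Cxcl13 and Madcam1 were named after their values were seen. The members and lists were chosen with earlier results of these data known. Alternatives covered pseudocount, minimum, size rule, scaling and length trend. Scripts ran in Python 3.11.15 (scipy 1.17.1) and were tested on simulated data.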

Additional observations from a re-analysis of the deposited data

Results flagged for a closer look

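Cd22 and Cr2 differed from control in opposite directions in the 2 libraries with high M-CSF, with counting intervals clear of 1 on each side. For Cd22 the difference in log2(FPKM + 1) was -0.28 between mM-CSF and control and 0.39 between sM-CSF and control. For Cr2 it was -1.23 between mM-CSF and control and 0.47 between sM-CSF and control. The difference between these effects was not tested, since each group has 1 library and both comparisons share the control library. Both are long genes, at 4055 and 6207 bases, and with the length trend removed the mM-CSF differences were 0.19 for Cd22 and -0.36 for Cr2.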

How the results depend on the processing

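No paired analysis was possible because each group has 1 library. All 9 genes stayed above control in the sM-CSF library under every alternative run. Their median difference of 0.89 became 0.75 with TPM and 0.72 with the length trend removed, and the 3 genes called higher became 6 under a 1.5-fold rule, 0 with TPM, 1 with median-of-ratios scaling and 0 with the length trend removed, where 4.2%, 0.872%, 0.676% and 0.485% of all genes were called higher. In the mM-CSF library, against control, the 3 genes called higher became 1 (Cd79b) with TPM and 0 with the length trend removed (2.50% and 2.93% of all genes higher), which also took the 1 gene called lower to 0 (7.96% of all genes lower), and the median of 0.38 became -0.0789 with TPM. For mM-CSF against sM-CSF the median of -0.22 became -0.54 with TPM and -0.0896 with median-of-ratios scaling, and the 1 gene called lower became 3 under a 1.5-fold rule, where 22.1% of all genes were called lower. Cr2 was called lower there under every alternative run.

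Of the B lineage list genes, 17 were called in either direction between mM-CSF and control, against 40 under a 1.5-fold rule, 30 with TPM and 11 with the length trend removed. Over all genes 8.97% were called higher and 15.1% lower, against 21.6% and 27.4% under a 1.5-fold rule. With TPM these were 2.5% and 30.3%, and with the trend removed 2.93% and 7.96%. Genes at 5 FPKM numbered 21 for signalling, 15 for transcription factors and 20 for mature surface and trafficking. The plasma cell list had 9, marginal zone 8, B-1 cell 4, germinal centre 3 and progenitor 2. Between sM-CSF and control 1 was called, against 0 with a pseudocount of 5, 2 with a minimum of 1 FPKM, with no minimum or with TPM, and 19 under a 1.5-fold rule. Over all genes 0.785% were called higher and 1.63% lower, against 0.392% and 0.733% with a pseudocount of 5. A minimum of 1 FPKM gave 1.2% and 1.96%, and no minimum 0.884% and 1.44%. TPM gave 0.872% and 3.24%, and the 1.5-fold rule 4.2% and 5.8%. Between mM-CSF and sM-CSF 17 were called, against 40 under a 1.5-fold rule and 31 with TPM. Over all genes 3.79% were called higher and 8.73% lower, against 15% and 22.1% under a 1.5-fold rule and 1.65% and 19.8% with TPM. Without ribosomal protein and globin genes in the total, the 9 genes took 0.440% of mM-CSF, 0.432% of sM-CSF and 0.245% of control counts. Without Cd79a and Cd79b, an alternative added after seeing the data, the other 7 took 0.124% of mM-CSF, 0.196% of sM-CSF and 0.131% of control counts.

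Alternatives of the minimum and of the size rule alter calls only and cannot move a difference, which lowers the fractions that follow. Of the differences of single genes under all alternatives, those included, 25 of 99 (mM-CSF and control), 15 of 99 (sM-CSF and control) and 27 of 99 (mM-CSF and sM-CSF) left the counting interval of the reported value. Apart from the trend subtraction and the scalings, the cause was not tested. Counting error limits Vpreb3 most, and 1 library per group limits every statement.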
